A study of Mus musculus with 11 samples.

Results

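Integrins, laminins, cadherins, junctional adhesion molecules and neural cell adhesion molecules form the surface and matrix machinery by which cells hold on to the basement membrane and to each other. The genes described here were chosen by symbol, with no measured value used: integrin alpha and beta chains (Itga and Itgb), laminin alpha, beta and gamma chains (Lama, Lamb and Lamc), cadherins (Cdh followed by a number), Jam2, Jam3, Ncam1 and Ncam2. The rule found 65 genes among the 20368 gene symbols of the expression tables. These are 18 integrin alpha chains, 8 integrin beta chains, 11 laminin chains, 24 cadherins, 2 Jam genes and 2 Ncam genes.

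The study examined C2C12 cells, a mouse myoblast line labelled as of strain C3H, which grows as single cells and fuses into myotubes when serum is lowered. It measured where the muscle transcription factors MyoD and MyoG sit on chromatin, and what happens to polyadenylated RNA when an enhancer-derived RNA, the DRR RNA, is reduced or supplied in excess. Each group used here held 1 library, so no difference between groups could be set against replicate spread, and no test of the differences was made. The ribosome-depleted RNA libraries of the series, from myotubes and from activated satellite cells, were not analysed here.

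The RNA groups were DRRi, cells with RNA interference against the DRR RNA, and its control GFPi, cells with RNA interference against GFP. In the second experiment they were pHAN_DRR1.2, cells overexpressing the DRR RNA, and its control pHAN_GFP, cells overexpressing GFP. The level of the DRR RNA itself, which is not a coding sequence, was not analysed here. All 4 libraries came from C2C12 cells after 4 h of differentiation in 2% serum, labelled as myocytes. The chromatin groups included unmanipulated C2C12 myotubes at 48 h of differentiation in 2% serum, with MyoD, MyoG and H3K4me1 immunoprecipitated. They also included proliferating C2C12 myoblasts in 10% serum, with MyoD and H3K4me1 immunoprecipitated. H3K4me1 is a histone mark of enhancers and of the flanks of promoters.

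Integrins are pairs of an alpha and a beta chain. The beta 1 chain joins many alpha chains, and its pairing with alpha 7 is the laminin receptor typical of skeletal muscle, while alpha 5 with beta 1 binds fibronectin and alpha v pairs with the beta 3, beta 5, beta 6 and beta 8 chains. Laminins are trimers of an alpha, a beta and a gamma chain, and the trimer with the Lama2 chain is the main laminin of the muscle fibre basement membrane. M-cadherin (Cdh15) and N-cadherin (Cdh2) join myoblasts to each other through catenins, and the zebrafish counterparts of Jam2 and Jam3 are needed on neighbouring cells for myoblast fusion.

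Promoter sequences are shown for the genes with a RefSeq promoter and a myotube MyoD peak within 500 bp of the 5′ end of the locus. The binding data bear on these windows. The RefSeq start used lay at the end of the GRCm38.p6 gene, or 249 bp inside it for Lama2. RefSeq promoters of the GRCm38.p6 build matched 37 of the 65 symbols, with 42 entries. The 5 genes that met the condition were Cdh15, Itgb1, Itgb5, Itgb6 and Lama2. The 250 bases before each start are printed 5′ to 3′ on the strand of the gene, and capitals mark every CANNTG, the E-box letters that bHLH factors such as MyoD and MyoG recognise. The windows, in GRCm38.p6, are chr8:122848124-122848373 on the plus strand for Cdh15, chr8:128685404-128685653 on the plus strand for Itgb1, chr16:33829415-33829664 on the plus strand for Itgb5, chr2:60722604-60722853 on the minus strand for Itgb6 and chr10:27616943-27617192 on the minus strand for Lama2.
Cdh15: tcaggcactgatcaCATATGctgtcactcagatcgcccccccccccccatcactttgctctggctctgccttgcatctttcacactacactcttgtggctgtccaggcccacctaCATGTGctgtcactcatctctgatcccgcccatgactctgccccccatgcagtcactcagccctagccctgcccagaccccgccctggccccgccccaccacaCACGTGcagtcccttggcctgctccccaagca
Itgb1: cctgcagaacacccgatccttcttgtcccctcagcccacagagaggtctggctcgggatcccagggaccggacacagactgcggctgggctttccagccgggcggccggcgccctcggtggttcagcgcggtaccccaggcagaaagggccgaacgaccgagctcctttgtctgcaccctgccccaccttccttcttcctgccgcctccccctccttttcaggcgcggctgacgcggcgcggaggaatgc
Itgb5: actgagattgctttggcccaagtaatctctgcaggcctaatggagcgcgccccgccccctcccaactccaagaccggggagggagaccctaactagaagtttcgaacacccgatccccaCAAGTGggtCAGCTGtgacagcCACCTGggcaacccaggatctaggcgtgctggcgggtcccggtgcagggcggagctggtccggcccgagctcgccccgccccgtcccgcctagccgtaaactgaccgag
Itgb6: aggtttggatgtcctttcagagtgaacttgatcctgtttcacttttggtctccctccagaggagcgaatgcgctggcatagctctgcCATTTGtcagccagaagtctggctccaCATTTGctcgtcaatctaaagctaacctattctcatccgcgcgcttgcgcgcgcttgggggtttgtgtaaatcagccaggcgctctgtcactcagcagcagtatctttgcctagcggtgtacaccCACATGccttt
Lama2: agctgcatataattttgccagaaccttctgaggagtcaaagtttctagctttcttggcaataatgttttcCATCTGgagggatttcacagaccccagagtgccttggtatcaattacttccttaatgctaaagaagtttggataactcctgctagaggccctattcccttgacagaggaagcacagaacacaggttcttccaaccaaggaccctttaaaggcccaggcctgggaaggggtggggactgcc

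Cdh15 held 3 E-boxes, with CATATG at 236 bases, then CATGTG at 135 bases and then CACGTG at 32 bases before the start. Itgb5 held 3 close together, with CAAGTG at 131 bases, then CAGCTG at 122 bases and then CACCTG at 109 bases before the start. Itgb6 held CATTTG at 163 and 136 bases and CACATG at 11 bases before the start, and Lama2 held a single CATCTG at 180 bases before it. Itgb1 held none in this window. CANNTG, which is its own reverse complement as a pattern, stood in 32 of the 42 promoter entries (76.2%), and in 66.2% of the 32851 RefSeq promoters in all. CAGCTG, likewise its own reverse complement and a subset of CANNTG, stood in 8 of 42 (19%) against 13% of all promoters. CACCTG or CAGGTG, the 2 strands of the same E-box and also a subset of CANNTG, stood in 10 of 42 (23.8%) against 17.2% of all. These matches describe letters and not binding.

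Expression was taken as the authors' FPKM, fragments mapped to a coding sequence scaled to its length and to the fragments mapped in the library, summed over the coding sequences of a symbol. A gene counted as expressed where the mean of both libraries of a table was 1 FPKM or more. Of the 65 genes, 26 were expressed in each table, 25 of them in both, 27 in at least 1 and 38 in neither. All 4 libraries listed 10 genes at 0. Expressed in at least 1 table were 6 of the 18 integrin alpha chains, 5 of the 8 beta chains, 7 of the 11 laminins, 6 of the 24 cadherins, both Jam genes and 1 of the 2 Ncam genes. Just above the limit stood Itgb7, a beta chain of lymphocyte integrins, with 1.55 FPKM in DRRi and 1.02 FPKM in GFPi, and 0.939 FPKM in pHAN_DRR1.2 and 0.615 FPKM in pHAN_GFP. Just below it stood Itgb6, the beta chain of an epithelial alpha v integrin, which reached 0.897 FPKM at most, and Itga1, a collagen-binding alpha chain, which reached 0.813 FPKM.

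The profile was that of myogenic cells. All 7 myogenic markers (Myod1, Myf5, Myog, Des and the adhesion genes Cdh15, Itga7 and Ncam1) were expressed in both tables, with summed levels of 433 FPKM in DRRi and 516 FPKM in GFPi, and of 1069 FPKM in pHAN_DRR1.2 and 854 FPKM in pHAN_GFP. Des held the largest part of each sum, from 231 FPKM in DRRi to 577 FPKM in pHAN_DRR1.2. Myog stood at 2.61 FPKM in DRRi and 10.2 FPKM in GFPi, and at 65.8 FPKM in pHAN_DRR1.2 and 26.3 FPKM in pHAN_GFP. Not all markers followed the sums. Myf5 had 18.4 FPKM in DRRi and 15.1 FPKM in GFPi, while the rest were lower in DRRi. Myod1 and Ncam1 had 65.6 and 55.1 FPKM in pHAN_DRR1.2, against 68.9 and 62.5 FPKM in pHAN_GFP, while the rest were higher in pHAN_DRR1.2. None of 4 endothelial and none of 4 epithelial markers was expressed, with sums of at most 0.120 and 0.859 FPKM in any library. Of 3 blood markers Cd68 alone was expressed, with the sum between 1.60 and 2.52 FPKM and Ptprc at or near 0. Of 3 fibroblast markers Col1a1 was expressed in the interference experiment, at 14.2 FPKM in DRRi and 4.32 FPKM in GFPi, while Thy1 was at or near 0. In the other experiment Col1a1 had 22.5 FPKM in pHAN_DRR1.2 and 17.4 FPKM in pHAN_GFP, and Pdgfra passed as well, with 0.978 FPKM in pHAN_DRR1.2 and 1.65 FPKM in pHAN_GFP. The fibroblast sums were 14.9 FPKM in DRRi, 5.25 FPKM in GFPi, 23.4 FPKM in pHAN_DRR1.2 and 19.1 FPKM in pHAN_GFP. Of 4 neural and Schwann markers Tubb3 alone passed, with list sums of 35.7 FPKM in DRRi, 24.6 FPKM in GFPi, 91.4 FPKM in pHAN_DRR1.2 and 51.6 FPKM in pHAN_GFP. Of 3 adipocyte markers Pparg alone passed, and the sums lay between 7.68 and 10.4 FPKM. The part of these differences between libraries in the values below was not tested. The myogenic sums include Cdh15, Itga7 and Ncam1, which are among the adhesion genes described here, so they are not separate from those values. In bulk libraries, fewer cells of a type and less RNA per cell cannot be told apart.

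The 65 genes together summed to 744 FPKM in DRRi and 811 FPKM in GFPi, and to 1131 FPKM in pHAN_DRR1.2 and 1013 FPKM in pHAN_GFP. Itgb1 was the most abundant of them in every library. It had 146 FPKM in DRRi and 198 FPKM in GFPi, and 238 FPKM in pHAN_DRR1.2 and 210 FPKM in pHAN_GFP. After it, by the mean of each table, came Cdh15, with Lamb1, Itga7 and Itga5 among the next 3 places in both tables.

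**Figure D1:**
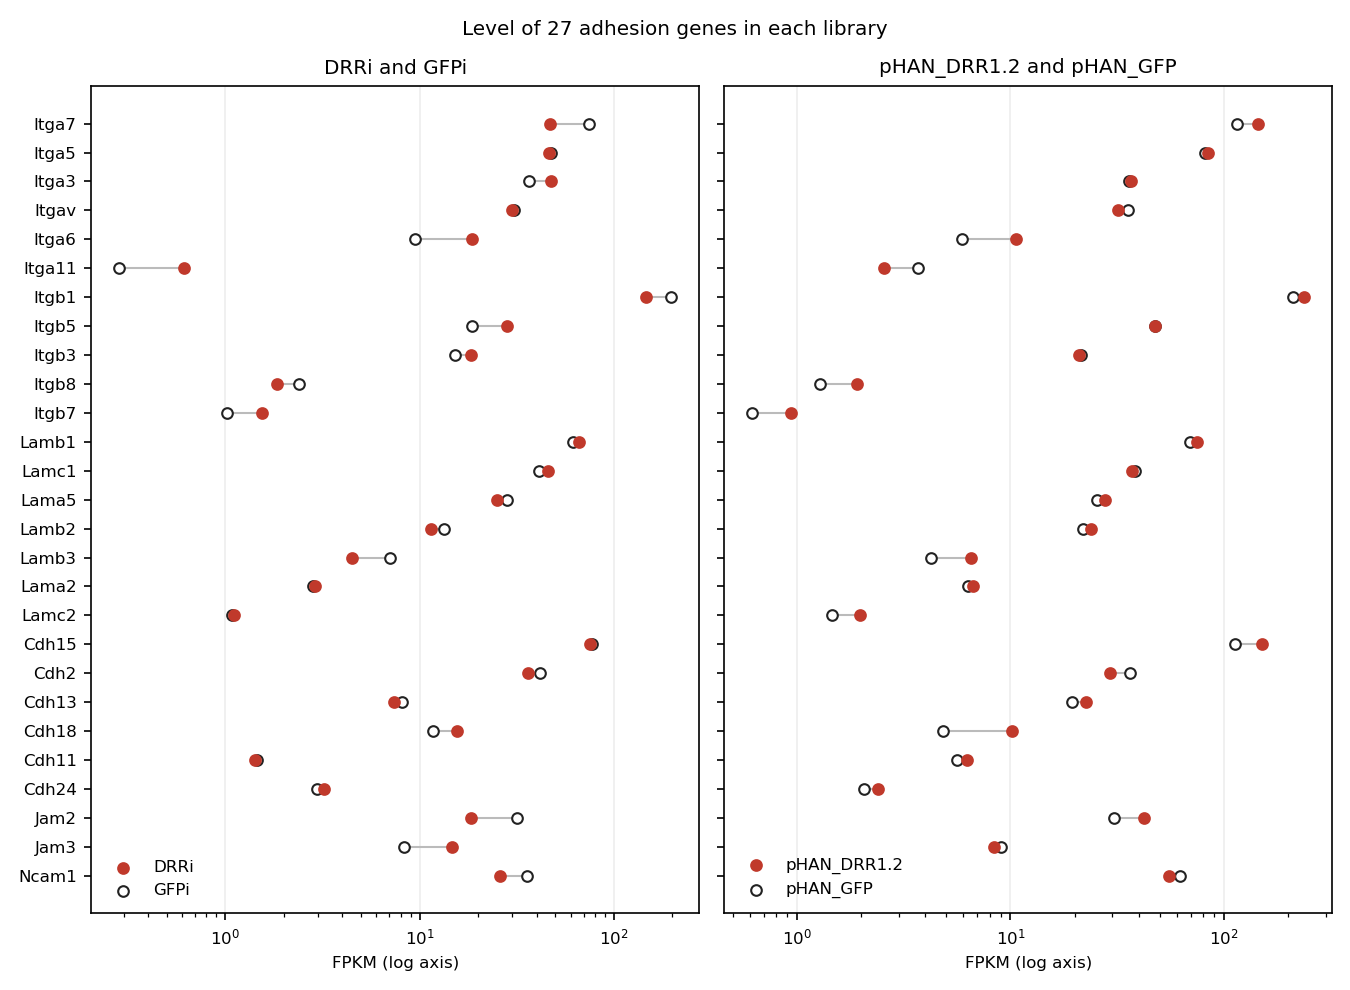
FPKM (log axis) of the 27 adhesion genes expressed in at least 1 table, ordered by family and then by level, in DRRi and GFPi (left) and in pHAN_DRR1.2 and pHAN_GFP (right). Each point is 1 library, filled for DRRi or pHAN_DRR1.2 and open for its control. The levels span from 0.284 FPKM for Itga11 in GFPi to 238 FPKM for Itgb1 in pHAN_DRR1.2, and for most genes the 2 points of a panel lie close together.

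In the interference experiment, 2 adhesion genes were higher and 2 lower in DRRi than in GFPi by 1.5-fold or more on the log2(FPKM + 1) scale, out of 26 expressed. The 2 higher were Itga6 and Jam3, and the 2 lower were Itga7 and Jam2. Over the 10577 expressed genes, 4.66% were higher and 3.5% lower by the same rule. The median change of the 26 was −0.02 on the log2 scale, against 0.02 over all genes. The changes ranged from −0.76 to 0.91, with quartiles of −0.21 and 0.24. On the same log2(FPKM + 1) scale, no adhesion gene was 2-fold or more higher or lower, against 0.898% and 0.804% of all genes. The authors' deposited table, with its q-value under 0.05, called none of the 32 adhesion genes that it tested. Of 11655 genes tested, 0.729% were called higher and 0.609% lower.

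In the overexpression experiment, 2 adhesion genes, Cdh18 and Itga6, were higher in pHAN_DRR1.2 than in pHAN_GFP by 1.5-fold or more. This was again on the log2(FPKM + 1) scale, and 0 of 26 were lower. Over 10699 expressed genes, 1.38% were higher and 0.654% lower. The median change of the 26 was 0.12 on the log2 scale, against 0.02 over all genes, and 19 of the 26 lay above 0, against 55.6% of all genes. On the log2(FPKM + 1) scale no adhesion gene was 2-fold or more higher or lower, against 0.318% and 0.0841% of all genes. Without the pseudocount, the FPKM ratio of Cdh18 was 2.10. The authors' deposited table called 3 of the 36 adhesion genes that it tested higher (8.33%), Cdh18, Itga4 and Itga6, and none lower. Of 11798 genes tested, 1.01% were called higher and 0.627% lower. With counts this small, nothing is read from them about the adhesion genes as a group.

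On the log2(FPKM + 1) scale, Itga6 was the single adhesion gene past 1.5-fold in both experiments. With a pseudocount of 0.1 in place of 1, Lamb3 passed it in both as well, at −0.64 in DRRi and 0.60 in pHAN_DRR1.2. Of the 25 genes expressed in both tables, 11 (44%) lay below 0 in DRRi and above 0 in pHAN_DRR1.2, against 23.9% of the 10398 genes expressed in both tables. The opposite pair of signs was seen for 3 (12%), against 21.5% of all genes. Another 8 (32%) lay above 0 in both, against 31.8% of all genes, and 3 (12%) below 0 in both, against 22.8%. Most of these 25 changes were smaller than 1.5-fold, and their signs were not tested.

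**Figure D2:**
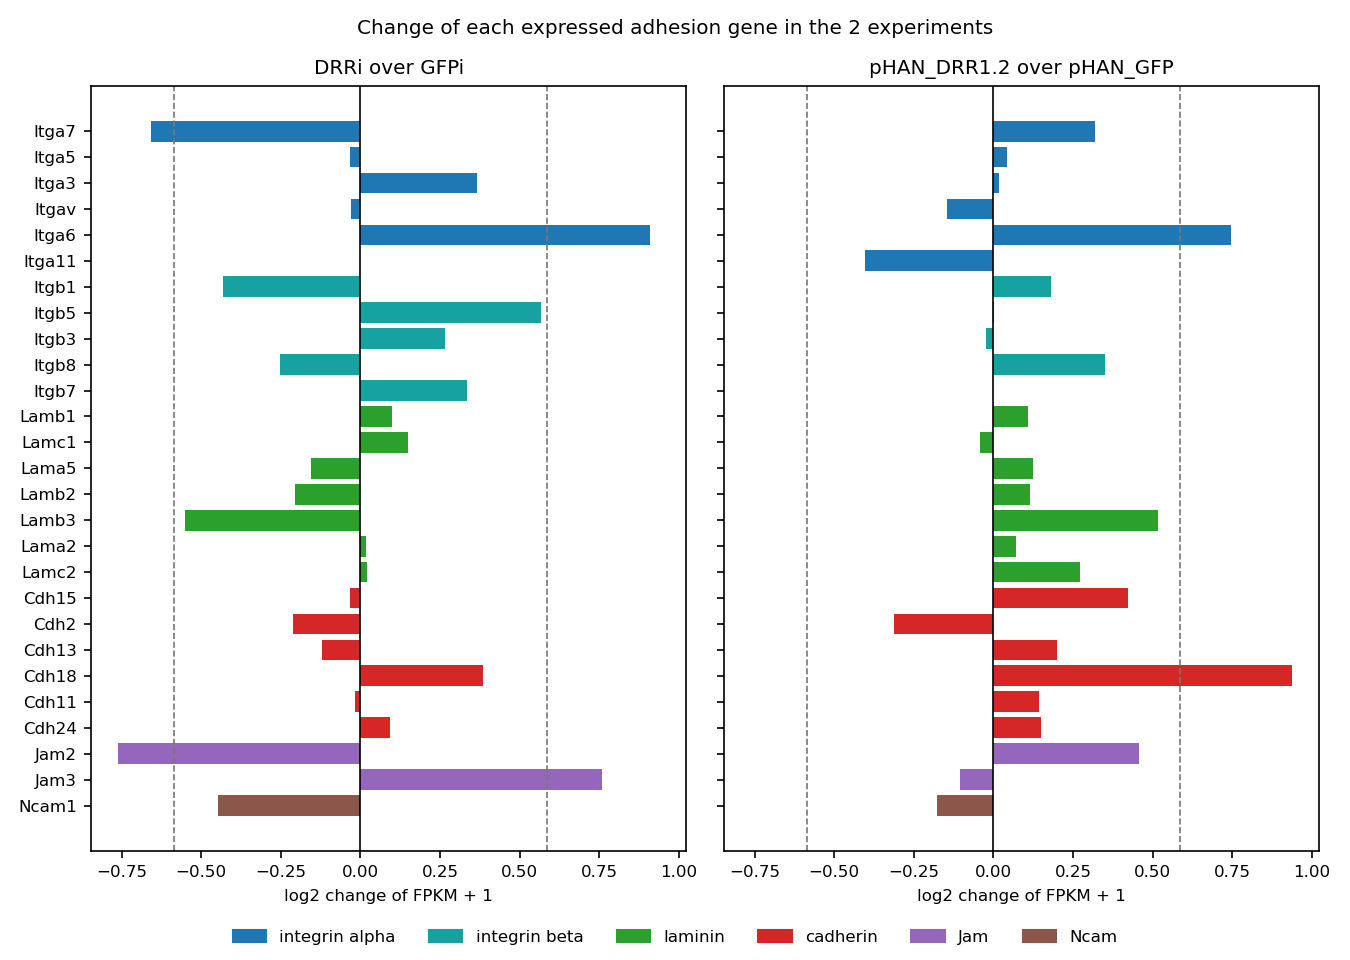
Change in log2(FPKM + 1) of each expressed adhesion gene, DRRi over GFPi (left) and pHAN_DRR1.2 over pHAN_GFP (right), with 1 library in each group and bars coloured by family. Dashed lines mark 1.5-fold. Itga6 passes the line in both panels, at 0.91 and 0.75, Itga7 and Jam2 lie at −0.66 and −0.76 on the left and at 0.32 and 0.46 on the right, and genes below 1 FPKM in a table have no bar there.

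The laminin chains, the ligands, had changes within 1.5-fold in both experiments on the log2(FPKM + 1) scale. Without the pseudocount, Lamb3 passed 1.5-fold in both, with FPKM ratios of 0.638 for DRRi over GFPi and 1.53 for pHAN_DRR1.2 over pHAN_GFP. Of the 7 expressed, 4 had a change above 0 in DRRi (median 0.02), against 53.5% of all genes. In pHAN_DRR1.2, 6 did (median 0.12), against 55.6% of all genes. Within each chain type a single gene held most of the summed FPKM. Lama5, the alpha chain widespread in basement membranes, made up 89.3% of the alpha chain FPKM in DRRi, 90.5% in GFPi, 79.6% in pHAN_DRR1.2 and 79.3% in pHAN_GFP. Lamb1 made up between 71.3% and 80.5% of the beta chain FPKM, and Lamc1, the gamma chain of most laminins, between 94.9% and 97.6% of the gamma chain FPKM.

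Lamb1 had 65.9 FPKM in DRRi and 61.4 FPKM in GFPi, and 75.2 FPKM in pHAN_DRR1.2 and 69.6 FPKM in pHAN_GFP. Lamc1 had 45.7 FPKM in DRRi and 41.1 FPKM in GFPi, and 37.1 FPKM in pHAN_DRR1.2 and 38.2 FPKM in pHAN_GFP. Lama2, the muscle alpha chain, was far less abundant than Lama5. It had 2.89 FPKM in DRRi and 2.84 FPKM in GFPi, and 6.70 FPKM in pHAN_DRR1.2 and 6.34 FPKM in pHAN_GFP, so that within each experiment its levels were nearly equal. Lamb3, the beta chain of the epithelial laminin trimer, was picked out here after its values were seen. It was the laminin nearest to the 1.5-fold line on the log2(FPKM + 1) scale. It had 4.48 FPKM in DRRi and 7.02 FPKM in GFPi, a change of −0.55, and 6.50 FPKM in pHAN_DRR1.2 and 4.24 FPKM in pHAN_GFP, a change of 0.52. The authors' deposited q-values for it were 0.764 and 0.305.

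Among the integrin alpha chains, the genes past 1.5-fold were both chains of laminin receptors. Itga6 (chr2:71625140-71694815 in mm9), the alpha chain of the laminin receptors alpha 6 beta 1 and alpha 6 beta 4, had 18.7 FPKM in DRRi and 9.51 FPKM in GFPi. In the other experiment it had 10.7 FPKM in pHAN_DRR1.2 and 5.95 FPKM in pHAN_GFP. It was thus higher than in the control library in both the interference and the overexpression experiment, by 0.91 and 0.75 on the log2 scale. The authors' deposited table gave it q = 0.0926 in the interference and q = 0.00819 in the overexpression experiment.

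Itga7 (chr10:128370869-128398044 in mm9), the laminin receptor chain of muscle, had 46.8 FPKM in DRRi and 74.3 FPKM in GFPi, a change of −0.66. It had 144 FPKM in pHAN_DRR1.2 and 115 FPKM in pHAN_GFP, a change of 0.32, which did not reach 1.5-fold. The authors' deposited q-values were 0.411 and 1. With this, the leading alpha chain differed between the libraries of the first experiment. Itga7 made up 24.5% of the alpha chain FPKM in DRRi, next to Itga3 with 25.0%, and 37.1% in GFPi, where it led. It led with 46.0% in pHAN_DRR1.2 and 41.0% in pHAN_GFP.

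The other abundant alpha chains changed less. Itga3, a further laminin-binding chain, had 47.7 FPKM in DRRi and 36.8 FPKM in GFPi, and 36.5 FPKM in pHAN_DRR1.2 and 36.0 FPKM in pHAN_GFP. Itga5, the fibronectin receptor chain, had 46.4 FPKM in DRRi and 47.5 FPKM in GFPi, and 84.2 FPKM in pHAN_DRR1.2 and 81.8 FPKM in pHAN_GFP. Itgav, the shared chain of the vitronectin receptors, had 30.0 FPKM in DRRi and 30.6 FPKM in GFPi, and 32.0 FPKM in pHAN_DRR1.2 and 35.5 FPKM in pHAN_GFP. All 3 lay within 1.5-fold in both experiments.

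Itga4, which binds fibronectin and Vcam1, stood below the expression limit. It had 0.567 FPKM in pHAN_DRR1.2 and 0.169 FPKM in pHAN_GFP, a ratio of 3.35 that the authors' deposited table called with q = 0.00172. It had 0.0414 FPKM in DRRi and 0.0580 FPKM in GFPi. On the log2(FPKM + 1) scale, which compresses changes of low genes, the overexpression difference was 0.42.

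Of the beta chains, none passed 1.5-fold in either experiment on the log2(FPKM + 1) scale. Without the pseudocount, the FPKM ratio of DRRi over GFPi was 1.51 for Itgb5 and 1.52 for Itgb7. The median change of the 5 expressed was 0.27 in DRRi, and that of the 4 expressed in the other table was 0.09 in pHAN_DRR1.2. Itgb1 had a change of −0.43 in DRRi and 0.18 in pHAN_DRR1.2, and made up 74.2% of the beta chain FPKM in DRRi, 83.8% in GFPi, 76.5% in pHAN_DRR1.2 and 74.5% in pHAN_GFP. Itgb5, a partner of alpha v, lay closest to the line. It had 28.1 FPKM in DRRi and 18.6 FPKM in GFPi, a change of 0.57 with q = 0.652 in the authors' deposited table, and 47.6 FPKM in pHAN_DRR1.2 and 47.5 FPKM in pHAN_GFP.

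Among the cadherins, Cdh15 made up 53.6% of the summed cadherin FPKM in DRRi, 53.3% in GFPi, 67.8% in pHAN_DRR1.2 and 61.8% in pHAN_GFP. M-cadherin had 75.0 FPKM in DRRi and 76.7 FPKM in GFPi, and 151 FPKM in pHAN_DRR1.2 and 113 FPKM in pHAN_GFP. Its change was −0.03 in the interference experiment and 0.42 in the overexpression experiment, where the authors' deposited q was 0.508. N-cadherin (Cdh2) had 36.0 FPKM in DRRi and 41.8 FPKM in GFPi, and 29.2 FPKM in pHAN_DRR1.2 and 36.5 FPKM in pHAN_GFP, below its control in both experiments by less than 1.5-fold.

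Cdh18 (chr15:22966218-23404173 in mm9), a type II cadherin known from the nervous system, had 10.2 FPKM in pHAN_DRR1.2 and 4.84 FPKM in pHAN_GFP. The change of 0.94 was the largest upward one among the adhesion genes of that table, with q = 0.00187 in the authors' deposited table. It had 15.6 FPKM in DRRi and 11.7 FPKM in GFPi, a change of 0.39. Cdh13, the membrane-anchored T-cadherin, had 7.43 FPKM in DRRi and 8.17 FPKM in GFPi, and 22.5 FPKM in pHAN_DRR1.2 and 19.5 FPKM in pHAN_GFP. Of the 6 expressed cadherins, 2 had a change above 0 in DRRi (median −0.02) and 5 in pHAN_DRR1.2 (median 0.17), against 53.5% and 55.6% of all genes.

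The 2 Jam genes, immunoglobulin-family proteins that bind each other across cells, went opposite ways in DRRi. Jam2 (chr16:84774368-84826620 in mm9) had 18.4 FPKM in DRRi and 31.9 FPKM in GFPi, a change of −0.76, the most negative of the 26 genes. Jam3 (chr9:26904969-26963006 in mm9) had 14.7 FPKM in DRRi and 8.28 FPKM in GFPi, a change of 0.76. The authors' deposited q-values were 0.226 for Jam2 and 0.460 for Jam3. In the overexpression experiment Jam2 had 42.4 FPKM in pHAN_DRR1.2 and 30.6 FPKM in pHAN_GFP, a change of 0.46, and Jam3 had 8.36 FPKM in pHAN_DRR1.2 and 9.06 FPKM in pHAN_GFP, a change of −0.10. Neither passed 1.5-fold there.

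Ncam1, a homophilic adhesion molecule of myoblasts and nerve, had 25.8 FPKM in DRRi and 35.6 FPKM in GFPi, and 55.1 FPKM in pHAN_DRR1.2 and 62.5 FPKM in pHAN_GFP. The tables list 3 coding sequences for it, which the files do not name. In the interference experiment the most abundant had 21.4 FPKM in DRRi and 22.8 FPKM in GFPi, while another had 2.82 FPKM in DRRi and 11.3 FPKM in GFPi. In the overexpression experiment the same pair of coding sequences had 25.0 and 27.3 FPKM in pHAN_DRR1.2, against 30.2 and 30.1 FPKM in pHAN_GFP. The split of fragments between coding sequences that share exons is an estimate, and the authors' deposited q-value for the second was 1 in the interference experiment.

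The 38 genes expressed in neither table included several integrin chains of blood cells, while Itgb7, a chain of lymphocyte integrins, was expressed in the interference experiment. Itgal, Itgam, Itgax, Itgad and Itgb2, chains of leukocyte integrins, reached at most 0.339 FPKM in any library, and Itgad and Itgax were listed at 0 in all 4. These 5 were picked by their known cell type after their values were seen. E-cadherin (Cdh1) had 0.0812 FPKM in DRRi and 0.421 FPKM in GFPi, and 0.344 FPKM in pHAN_DRR1.2 and 0.171 FPKM in pHAN_GFP.

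The intracellular and matrix partners of these receptors were described by lists of known partners, beside 4.66% of all genes higher and 3.5% lower in DRRi, and 1.38% higher and 0.654% lower in pHAN_DRR1.2. Passing 1.5-fold was judged on the log2(FPKM + 1) scale in all of these lists. Of 23 expressed focal adhesion adaptors, 2 were higher and 0 lower in DRRi by 1.5-fold or more, with a median change of 0.18. They were the kinase Src, with 15.6 FPKM in DRRi and 9.18 FPKM in GFPi, and the actin crosslinker Actn1, with 154 FPKM in DRRi and 102 FPKM in GFPi. In pHAN_DRR1.2 the kinase Fyn alone passed, with 26.7 FPKM in pHAN_DRR1.2 and 17.3 FPKM in pHAN_GFP, and the median was 0.06.

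Of 13 expressed matrix ligands of integrins, 1 was higher and 0 lower in DRRi, with a median of 0.02, and 0 passed in either direction in pHAN_DRR1.2. The gene was Thbs1, thrombospondin 1, with 358 FPKM in DRRi and 185 FPKM in GFPi. Its levels in the other table were 293 FPKM in pHAN_DRR1.2 and 393 FPKM in pHAN_GFP, a change of −0.42. Of 6 cadherin partners, 1 was lower in DRRi, Jup (plakoglobin, a catenin), with 18.5 FPKM in DRRi and 29.5 FPKM in GFPi, and none passed in pHAN_DRR1.2.

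Of 6 tetraspanins and other integrin partners, 2 were lower in DRRi and 0 higher, with a median of −0.34, and none passed in pHAN_DRR1.2. The tetraspanin Cd82 had 75.1 FPKM in DRRi and 122 FPKM in GFPi, and caveolin 1 (Cav1) had 101 FPKM in DRRi and 161 FPKM in GFPi. Of 8 junction and immunoglobulin partners, none passed in DRRi, while in pHAN_DRR1.2 1 was higher and 1 lower. The adhesion molecule L1cam had 6.55 FPKM in pHAN_DRR1.2 and 3.32 FPKM in pHAN_GFP, with q = 0.00255 in the authors' deposited table. St8sia2, which builds polysialic acid on Ncam1, had 6.83 FPKM in pHAN_DRR1.2 and 17.2 FPKM in pHAN_GFP, a change of −1.22 with q = 6.96e-09 in the authors' deposited table. Ncam1 itself changed by −0.18 in that experiment.

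Binding was read from the authors' peak lists in mm9, counting peaks at 10 kb or less from each locus. Covered lengths and reads of H3K4me1 are those of whole domains, including any part of a domain beyond 10 kb. A myotube MyoD peak was present at 48 of the 65 loci (73.8%), against 56% of all 20368 symbols, and a myoblast MyoD peak at 30 (46.2%), against 34.3%. A myotube MyoG peak was present at 45 (69.2%), against 52.9%. H3K4me1 domains were present at 51 loci (78.5%) in myotubes, against 72%, and at 52 (80%) in myoblasts, against 73.6%. Long loci hold more peaks, so density was compared too. The 65 windows held 2.37 myotube MyoD peaks, 1.14 myoblast MyoD peaks and 2.28 MyoG peaks per 100 kb, and the windows of all symbols held 2.36, 0.94 and 2.09. H3K4me1 domains numbered 3.45 per 100 kb in myotubes and 3.23 in myoblasts, below the 4.36 and 4.06 of all symbols. Per length, the adhesion loci therefore stood close to the background in myotube MyoD and MyoG peaks and below it in domains, while the share of loci with any peak or domain was above it.

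Genes expressed in neither table are called silent here, although only 10 adhesion genes were listed at 0 in all 4 libraries. The word refers to the 4 h libraries, and RNA levels in the 48 h myotubes were not analysed. Of the 27 expressed genes, 24 had a myotube MyoD peak, 19 a myoblast MyoD peak and 26 a MyoG peak, and the shares for all expressed symbols were 73.9%, 45.3% and 69.9%. Of the 38 silent genes, 24 had a myotube MyoD peak, 11 a myoblast MyoD peak and 19 a MyoG peak, and the shares for all silent symbols were 35.6%, 21.6% and 33.5%. A myotube H3K4me1 domain was listed at 26 expressed and 25 silent adhesion genes, against 94.5% of expressed and 46.2% of silent symbols. A myoblast domain was listed at 26 expressed and 26 silent adhesion genes, against 95.7% and 48.3%. The density of myotube MyoD peaks was 3.27 per 100 kb for the expressed and 1.71 for the silent adhesion genes, against 3.47 and 1.23 for all symbols of each kind. By family, the integrin beta loci had the highest density, at 7.51 per 100 kb, and the cadherin loci, many of them long and silent, the lowest at 1.28. Itgb6 and Itgb5 held most of the 51 integrin beta peaks, while Itgb7 and Itgb8 had none.

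MyoD peaks were more numerous in myotubes than in myoblasts at 41 of the 65 loci, fewer at 4 and equal at 20. Over all symbols, 45.6% had more, 3.99% fewer and 50.4% equal numbers, most of the last with none at either stage. The deposited lists differ in length in the same direction, with 39700 MyoD peaks in myotubes and 18141 in myoblasts. The 4 loci with fewer in myotubes were Cdh15, Itga7, Itgb3 and the silent Cdh10. At Cdh15 the 2 myoblast peaks both lie under 1 broad myotube peak, so this count depends on how peaks were split. At Itga7 the 2 myoblast peaks inside the locus likewise share 1 myotube peak. A further myoblast peak there, at chr10:128365241-128366170 with a score of 89.32, overlapped no myotube MyoD peak. At 19 loci MyoD peaks were listed in myotubes and not in myoblasts, among them the expressed genes Itga6, Jam3, Lamb2, Cdh11 and Cdh24, and the same held for 24.1% of all symbols. No MyoD peak was listed at either stage at 16 loci, among them the expressed Itgav, Itgb7 and Itgb8, against 41.6% of all symbols. No list held a peak or domain at 9 silent genes, 7 of them cadherins.

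**Figure D3:**
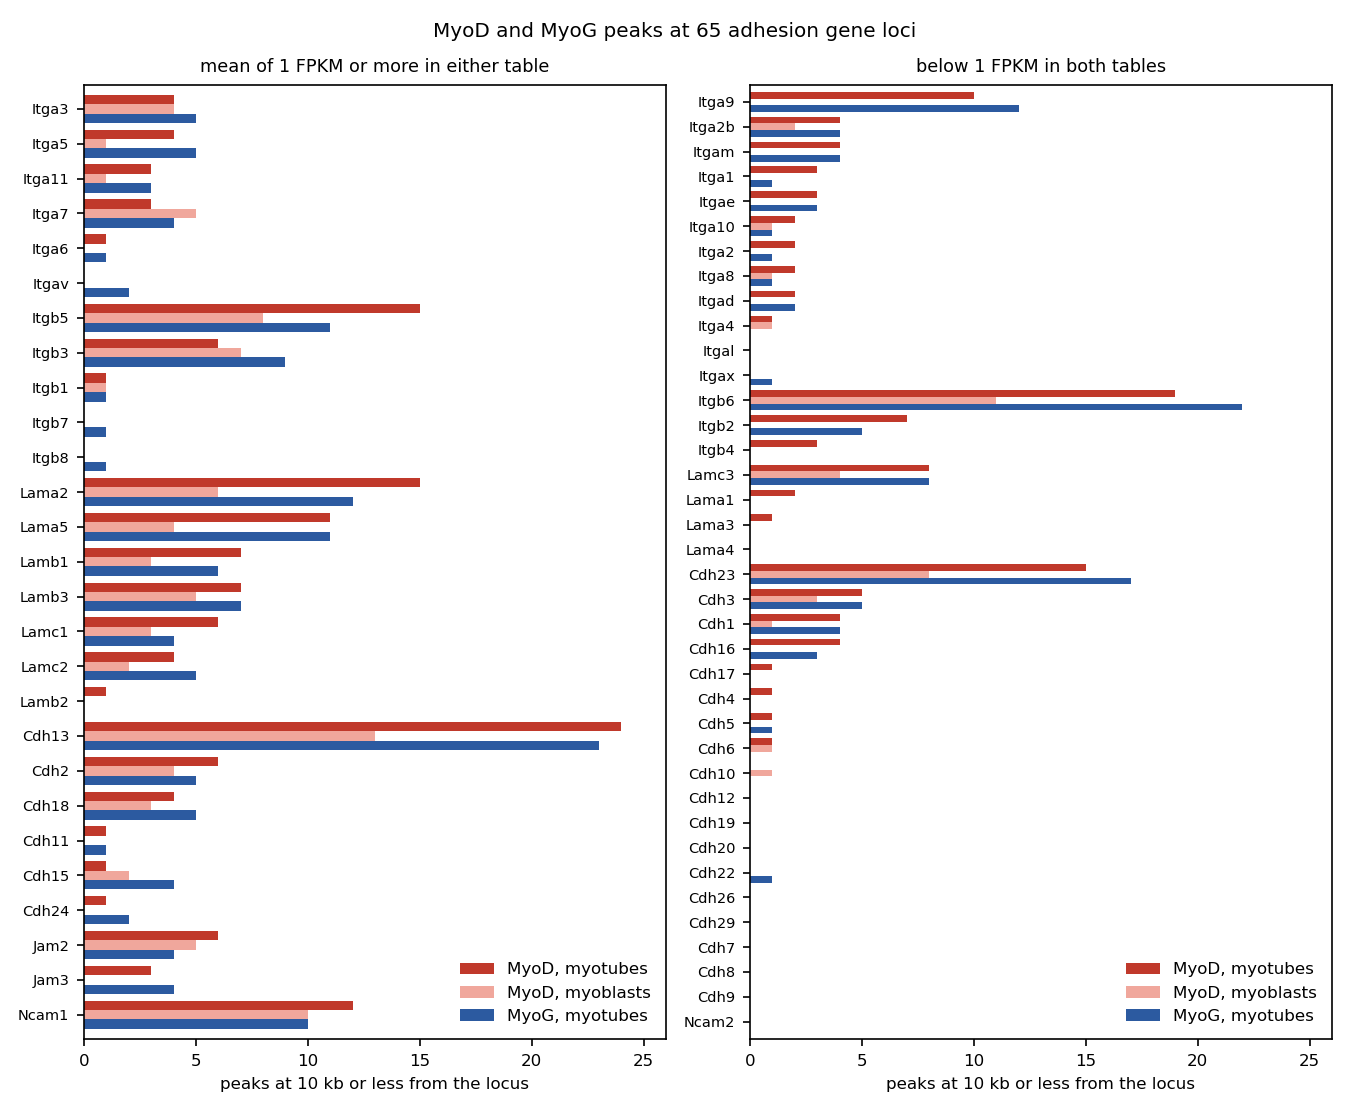
Number of peaks at 10 kb or less from the locus for MyoD in myotubes, MyoD in myoblasts and MyoG in myotubes, for the 27 adhesion genes at 1 FPKM or more in at least 1 table (left) and the 38 below it in both (right). Bars are counts in the authors' lists, with 1 list per group. Cdh13 holds the most myotube MyoD peaks, 24, and Itgb6, Cdh23 and Itga9 hold the most on the right, with 19, 15 and 10.

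Of the 251 myotube MyoD peaks at the adhesion loci, 104 (41.4%) overlapped a myoblast MyoD peak, with an exact Clopper-Pearson interval of 35.3 to 47.8%, against 34.1% of all 39700 peaks. The interval covers counting error only, and neighbouring peaks share a locus. The share was 48.6% (40.3 to 57.0%) at expressed and 31.4% (22.7 to 41.2%) at silent adhesion loci. The same split was not made for all symbols, so this gap is not read as particular to adhesion genes. The shares of all peaks cover the whole lists, whatever the distance of a peak from a locus. Conversely, 103 of the 121 myoblast MyoD peaks (85.1%, 77.5 to 90.9%) overlapped a myotube peak, against 73.9% of all myoblast peaks. MyoG peaks overlapped 71.7% of the myotube MyoD peaks, against 66.9% of all. Domains of H3K4me1 overlapped 85.3% of them in myotubes and 65.7% in myoblasts, against 85% and 61.6% of all.

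The loci of the genes past 1.5-fold in DRRi carried different sets of peaks. At Jam3, 3 MyoD peaks were listed in myotubes and 0 in myoblasts. The myotube list of MyoG held 4. Its H3K4me1 domains numbered 6 in myotubes and 1 in myoblasts, covering 14.6 kb with 530 reads in myotubes and 0.6 kb with 29 reads in myoblasts. The highest-scored myotube MyoD peak, at chr9:26956309-26957350 inside the locus, had a score of 558.82 and overlapped a MyoG peak, a myotube H3K4me1 domain and no myoblast peak or domain.

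At Jam2, MyoD peaks numbered 6 in myotubes and 5 in myoblasts, and 5 of the 6 overlapped a myoblast peak. H3K4me1 covered 21.8 kb with 708 reads in myotubes and 34.0 kb with 1301 reads in myoblasts. The highest-scored myotube peak lay at chr16:84783381-84784170 inside the locus, with a score of 1056.42. The pair of Jam loci thus differed in whether MyoD peaks were already listed in myoblasts.

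At Itga7, MyoD peaks numbered 3 in myotubes and 5 in myoblasts, and MyoG peaks 4. The myotube peak at chr10:128374512-128376176, inside the locus, had a score of 3100, which is near the top of the list. A second of equal score lay 9803 bp outside, at chr10:128357769-128361066, where the genes Bloc1s1, Cd63, Mettl7b and Rdh5 are also within 10 kb. H3K4me1 covered 24.4 kb with 1121 reads (45.9 per kb) in myotubes and 32.8 kb with 2167 reads (66.1 per kb) in myoblasts. A myoblast domain ran from −22.668 to −8.669 kb, measured from the low-coordinate edge of the locus, so much of it lies beyond the 10 kb window. The covered lengths within the window alone were not compared. Over all domains the mean was 37.5 reads per kb in myotubes and 45.8 in myoblasts.

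Itga6 had a single myotube MyoD peak and none in myoblasts. The peak, at chr2:71702851-71703553, had a score of 198, lay 8036 bp outside the locus and was also within 10 kb of Pdk1. Cdh18 had 4 MyoD peaks in myotubes and 3 in myoblasts over a locus of 438 kb. Its highest-scored myotube peak, at chr15:23297184-23298052, had a score of 278.84, and H3K4me1 covered 16.8 kb in myotubes and 45.2 kb in myoblasts. The 2 genes past 1.5-fold in pHAN_DRR1.2 thus held few MyoD peaks for their length.

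**Figure D4:**
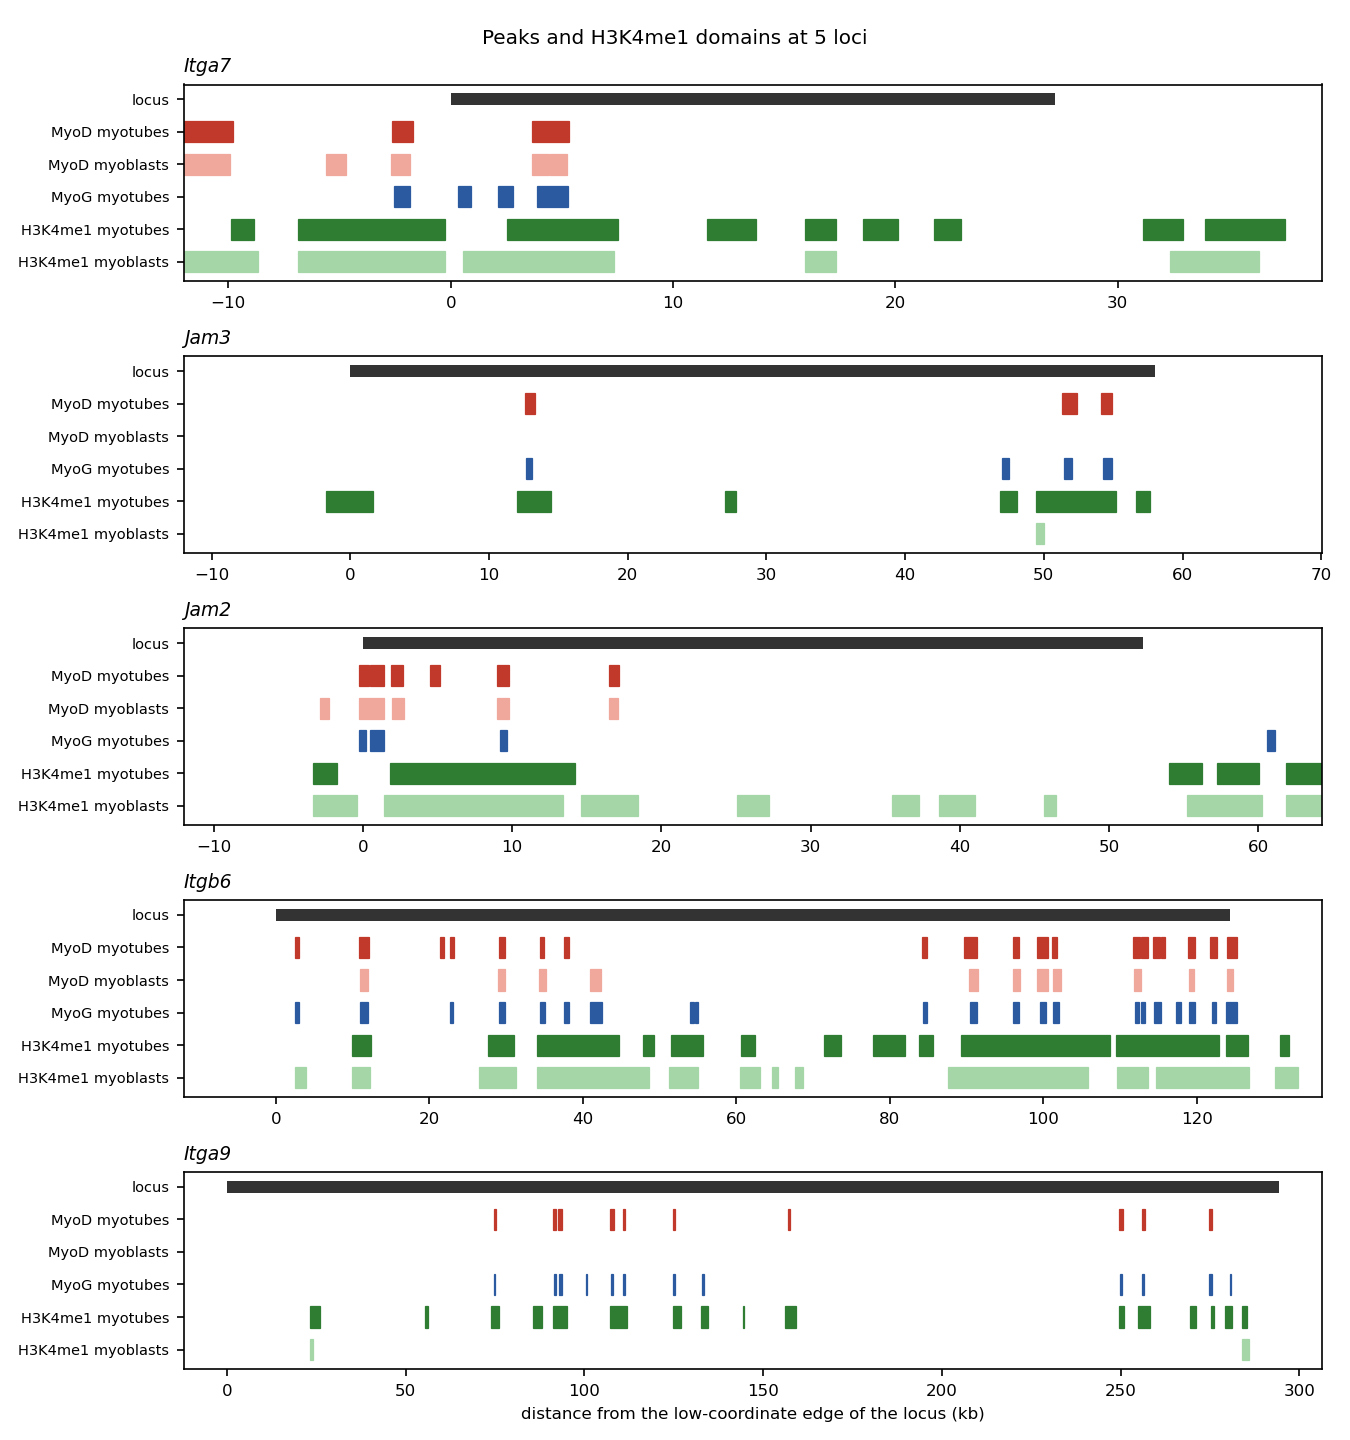
Positions of the authors' MyoD and MyoG peaks and H3K4me1 domains around the Itga7, Jam3, Jam2, Itgb6 and Itga9 loci, as distance in kb from the low-coordinate edge of the locus (black bar). Each coloured box is a peak or domain of 1 deposited list, with myotubes above myoblasts for each factor. Jam3 and Itga9 show MyoD boxes in myotubes and none in myoblasts, and Itgb6 carries 19 and 11.

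The 5 loci with the most myotube MyoD peaks were Cdh13 with 24, Itgb6 with 19, and Cdh23, Itgb5 and Lama2 with 15 each. Cdh13 (chr8:120807655-121847348) spans 1040 kb, and its peaks scored at most 638.35, at chr8:120808028-120808951. It had 13 MyoD peaks in myoblasts and 23 MyoG peaks. Lama2 spans 636 kb, with 6 MyoD peaks in myoblasts and 12 MyoG peaks. Its H3K4me1 domains covered 57.6 kb in myotubes and 30.4 kb in myoblasts. Cdh23, a cadherin of the hair cell tip links, is silent here, at no more than 0.459 FPKM. Its highest-scored peak, at chr10:59841909-59842904 with a score of 1938.32, also lies within 10 kb of 4632428N05Rik and Gm17455.

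Itgb6 (chr2:60436349-60560660) spans 124 kb with no other symbol within 20 kb, and had 19 MyoD peaks in myotubes, 11 in myoblasts and 22 MyoG peaks. Of the 19, 11 overlapped a myoblast MyoD peak and 17 a MyoG peak. The highest, at chr2:60525965-60527704, scored 3100. H3K4me1 covered 69.0 kb in myotubes and 68.8 kb in myoblasts. Its level in the 4 h libraries was nevertheless low, at 0.273 FPKM in DRRi, 0.408 FPKM in GFPi, 0.897 FPKM in pHAN_DRR1.2 and 0.501 FPKM in pHAN_GFP. The RNA and binding data come from different stages, 4 h of differentiation for RNA, and 48 h myotubes or proliferating myoblasts for binding.

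Itga9, an alpha chain that pairs with beta 1, was picked out after its values were seen. It had 10 MyoD peaks and 12 MyoG peaks in myotubes and 0 MyoD peaks in myoblasts, with no other symbol within 20 kb. H3K4me1 covered 35.6 kb with 990 reads in myotubes and 3.0 kb with 89 reads in myoblasts. Its level was at most 0.0389 FPKM in any of the 4 h libraries.

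Itgb5 (chr16:33829751-33949424) had 15 MyoD peaks in myotubes, 8 in myoblasts and 11 MyoG peaks. Its highest-scored myotube peak, at chr16:33941060-33942243, scored 2872.35. H3K4me1 covered 88.8 kb in myotubes and 75.6 kb in myoblasts. Ncam1, with 12 MyoD peaks in myotubes and 10 in myoblasts, had the widest H3K4me1 of these loci, 207.0 kb with 8012 reads in myotubes and 114.8 kb with 5034 reads in myoblasts. Its highest-scored myotube MyoD peak, at chr9:49344528-49346856, scored 3100.

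The starts of the genes, where the sequences above lie, were read next. Within 500 bp of the 5′ end, 5 of the 37 genes with a RefSeq promoter had a MyoD peak in myotubes, 5 in myoblasts and 5 a MyoG peak, while 16 had an H3K4me1 domain in myotubes and 21 in myoblasts. Of the 14280 symbols with a RefSeq promoter and a single locus, 17.9% had a MyoD peak there in myotubes, 6.47% a MyoD peak in myoblasts and 12.3% a MyoG peak. An H3K4me1 domain was there for 34.6% of them in myotubes and 38.3% in myoblasts. At Cdh15 the myotube MyoD peak, at chr8:125371822-125376589 with a score of 3100, ran from 452 bp before to 4315 bp after the 5′ end, and the myoblast peak, with a score of 2851.19, from 463 bp before to 1550 bp after it. A weaker MyoG peak, with a score of 96.15, ran from 227 bp before to 243 bp after it. Placed by distance from the 5′ end, both MyoD peaks cover the whole window printed above, with its 3 E-boxes. Peaks (mm9) and printed windows (GRCm38.p6) are of different builds, and were matched only by this distance. The loci of Cdh15, Itgb1, Itgb5 and Itgb6 have the same length in both builds, while Lama2 has 635657 bp in mm9 and 635907 bp in GRCm38.p6.

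At Itgb6 the myotube MyoD peak, with a score of 1895.31, ran from 962 bp before to 412 bp after the 5′ end, and the myoblast peak, with a score of 946.98, from 418 bp before to 401 bp after it. At Lama2 the myotube peak, with a score of 1866.27, ran from 1131 bp before to 845 bp after, and the myoblast peak, with a score of 1127.3, from 1213 bp before to 206 bp after. Each of these covers the window of its gene.

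At Itgb1, whose window holds no E-box, the myotube MyoD peak scored 336.74 and ran from 737 to 106 bp before the 5′ end, so it overlapped part of the window. The myoblast peak there scored 73.4 and ran from 744 to 12 bp before it. At Itgb5 a myotube peak of low score, 80.93, ran from 562 to 36 bp before the 5′ end, across all 3 E-boxes, and no myoblast MyoD peak was listed there. The least score in these lists is 60, so the Itgb1 myoblast peak and the Itgb5 peak both lie near the authors' limit.

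Over the 65 loci, H3K4me1 domains covered 1434 kb with 54579 reads in myotubes and 1233 kb with 61443 reads in myoblasts, or 38.1 and 49.8 reads per kb. Over all domains of the lists the means were 37.5 and 45.8 reads per kb. As a share of all reads in domains, 22 loci had more in myotubes and 31 fewer, against 37.5% and 39% of all symbols. Among the 22 were Jam3, Itga9, Lama2, Lama5, Lamb1, Itgb5, Ncam1 and Cdh15.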

How the data were processed

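The members, gene lists, tests and alternatives were chosen with earlier results of these data known. Expression values are the authors' FPKM per coding sequence in 2 deposited tables, each normalized on its own, so levels were compared only within a table. Read depth is not given in the sources used here, so its effect on precision is unknown. The tables name the manipulated conditions otherwise than the labels do: the condition that is not the GFP control was taken as DRRi or pHAN_DRR1.2. The p-values and q-values quoted are the authors' own, from the deposited tables. TopHat, SICER, bedtools and the mm9 build are named, without versions, in the submitters' processing notes. Per the file headers, MACS called the peaks of MyoD and MyoG. Their deposited score is not defined. The labels list 2 runs for each MyoD and MyoG sample, and the deposited file holds 1 peak list per sample. For H3K4me1 the authors deposited domains with read counts and a fold ratio over control.

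FPKM were summed per symbol, and changes are differences of log2(FPKM + 1) where the mean was 1 FPKM or more. With 1 library per group, called means 1.5-fold (0.585 on the log2 scale) or more. Peaks counted at 10 kb or less from the locus, and overlap meant 1 bp or more. Locus starts were counted from 0 in the tables and were converted, since 5762 of 18052 symbols then have the RefSeq gene length, against 412 otherwise. Genes were named if past 1.5-fold, called by the authors at q under 0.05, among the 10 most abundant of a table, or among the 5 with most myotube MyoD peaks. Software was Python 3.11.15 with pandas 2.3.3, numpy 2.4.6, scipy 1.17.1 and matplotlib 3.10.9, with bedtools 2.31.1 as a check of the peak counts. The calculations were tested on simulated data. Other pseudocounts, filters, thresholds, distances and overlaps were tried. Of 20368 symbols, 37 of the 65 members matched a RefSeq promoter, and no protein or mm9 sequence was used here.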

Additional observations from a re-analysis of the deposited data

How the results depend on the processing

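With 1 library per group no replicate could be left out, and the depth of the RNA libraries is unknown, which limits every change. No paired analysis was possible because each group held 1 sample. At a threshold of 2-fold, 0 adhesion genes were higher in DRRi, 0 lower in DRRi and 0 higher in pHAN_DRR1.2. Under the other 55 recomputations of counts, medians and shares (another pseudocount, filter, coding sequence rule, centring, distance, score limit or overlap), each count stayed within 1.5 times its value and no share moved beyond its interval. The medians moved most with no filter on low values, to 0.00 in DRRi against −0.02, and to 0.01 in pHAN_DRR1.2 against 0.12. The alternative that keeps only peaks within 10 kb of no other symbol was chosen after seeing the data, and left 35 loci with a myotube MyoD peak and 24 with a myoblast one. With a pseudocount of 0.1, Itgb5 passed 1.5-fold in DRRi (0.59), as did Lamb3 in DRRi (−0.64) and in pHAN_DRR1.2 (0.60). Itga4 passed it in pHAN_DRR1.2 as well (1.31). For the other 98 recomputations of single genes the side of the threshold was kept. The sign turned for Itgb5 (−0.02 against 0.00) and Itga3 (−0.0005 against 0.02) in pHAN_DRR1.2 when changes were centred on the median of all genes, both far below 1.5-fold.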
